A study of Caenorhabditis elegans with 6 samples.

Results

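The comt genes of Caenorhabditis elegans, comt-1 to comt-5, are named as catechol-O-methyltransferases. All 5 were found by symbol among the 46926 genes of the authors' deposited gene table. They were compared between whole wild-type N2 animals of the late L4 to young adult stage kept for 5 hours with 25 µM chaetocin and animals kept as long with the vehicle DMSO, both in NGM buffer with heat-treated OP50 bacteria as food. Chaetocin, made by fungi, is in use as a blocker of histone lysine methyltransferases. Each group has 3 libraries, numbered by the labels as biological replicates. Separate cultures are not stated, so a p-value here reflects the spread among the libraries as they are, which may be technical.

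Catechol-O-methyltransferases move a methyl group from S-adenosylmethionine onto a hydroxyl of a catechol ring. In mammals the enzyme is known for inactivating dopamine and for clearing catechols from food and drugs, and it is thus counted among the conjugating enzymes of xenobiotic metabolism. The methyl donor comes from the methionine cycle, and dopamine comes from tyrosine through a hydroxylase that needs the cofactor tetrahydrobiopterin. The genes of these supplying pathways are described after the comt genes themselves.

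Of the 5 genes, 3 form a cluster and 2 lie elsewhere. In the Ensembl annotation of WBcel235, comt-4 (WBGene00021491; V:2049217-2050185, minus strand), comt-5 (WBGene00021492; V:2052226-2053609, minus strand) and comt-3 (WBGene00021487; V:2057537-2061136, plus strand) lie within 11.92 kb. comt-5 and comt-3 point away from each other, with 3927 bases between their starts. comt-2 (WBGene00012518; V:16493453-16494489, minus strand) is on the same chromosome and far from the cluster, and comt-1 (WBGene00018741; X:2858063-2862472, minus strand) is on the X chromosome.

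The gene models show which members are built alike. comt-4 and comt-5 each have 4 exons and code for 227 residues. Their exon 2 has 331 bases and their exon 3 has 134 bases in both genes, and exons 2 and 3 of the longer comt-3 transcript, Y40B10A.2a.1, have these same lengths. The introns of comt-3 are longer, at 1837, 833 and 62 bases, against 58, 43 and 53 bases in comt-4 and 51, 43 and 537 bases in comt-5. comt-2 has 4 exons too, of which exon 2 has 334 and exon 3 has 134 bases, and it codes for 217 residues. comt-1 stands apart with 11 exons and 634 residues.

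**Figure D1:**
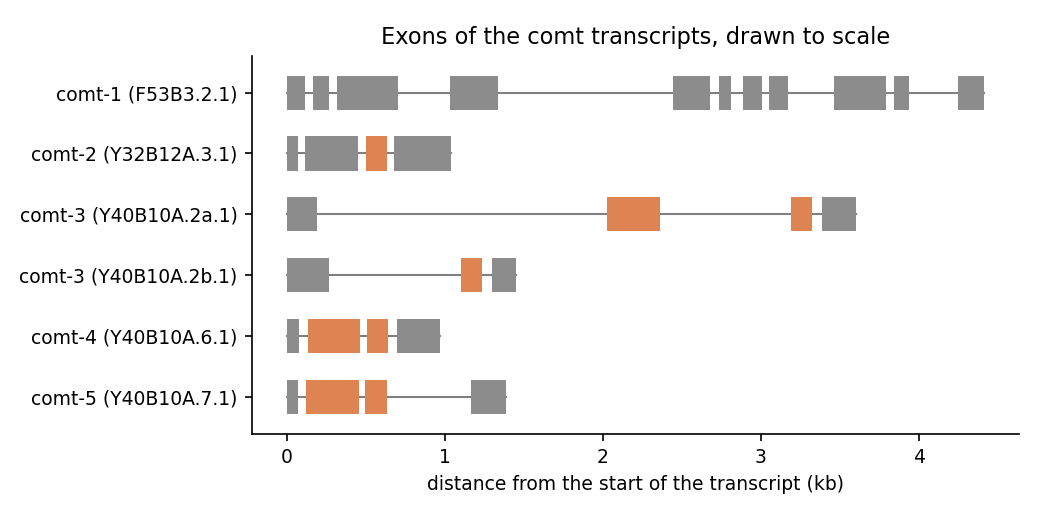
Exons (boxes) and introns (lines) of the 6 annotated comt transcripts, drawn to scale by distance in kb from the start of each transcript. Orange boxes are exons of 331 or 134 bases, the lengths that comt-4 and comt-5 share; comt-3 has both in its longer transcript, comt-2 has the 134-base exon, and comt-1 has neither.

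The genes were selected on their symbol, with the chaetocin and DMSO FPKM given here already known, so these values are a description and carry no test. comt-4 had 7.38, 4.42 and 56.8 FPKM in the DMSO libraries, named in the order of their replicate numbers throughout, and 2248, 2217 and 2225 FPKM in the chaetocin libraries. FPKM are fragment counts scaled to transcript length and library size, so levels may be set side by side between genes. Every chaetocin library stood far above every DMSO library, and the chaetocin libraries lay close together while the DMSO libraries did not.

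comt-5 had 1.79, 0.89 and 13.4 FPKM in the DMSO libraries and 456, 474 and 495 FPKM in the chaetocin libraries. It showed the same order of DMSO libraries as comt-4, with replicate 3 highest and replicate 2 lowest. The mean levels were 22.9 ± 29.4 and 2230.1 ± 15.9 FPKM for comt-4, and 5.35 ± 6.97 and 475 ± 19.2 FPKM for comt-5 (DMSO and chaetocin, SD, n = 3 each). The ratio of these means, chaetocin over DMSO, was 97.5 for comt-4 and 88.7 for comt-5.

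DMSO replicate 3 set much of both ratios. Without it the ratio was 378 for comt-4 and 354 for comt-5. Set against DMSO replicate 3 alone, the chaetocin mean was 39.2-fold higher for comt-4 and 35.5-fold higher for comt-5. Against DMSO replicate 2 alone it was 505-fold higher for comt-4 and 534-fold higher for comt-5.

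comt-3, the third gene of the cluster, moved less. It had 5.11, 6.38 and 7.95 FPKM in the DMSO libraries and 41.96, 43.8 and 46.2 FPKM in the chaetocin libraries. The groups did not overlap, and 14.1% of all tested genes lay wholly higher with chaetocin in the same way. The means of 6.48 ± 1.42 and 43.98 ± 2.12 FPKM (SD, n = 3 each) gave a ratio of 6.79. Leaving out 1 library at a time kept this ratio between 6.14 and 7.66. The authors' deposited table gives comt-3 a log2 fold change of 2.79 with a standard error of 0.12, given here as chaetocin over DMSO, and a mean normalized count of 736.

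The 2 members outside the cluster were listed near 0. comt-2 was listed at 0.06, 0.09 and 0.24 FPKM with DMSO and at 0.04, 0.07 and 0.04 FPKM with chaetocin, so the groups overlapped. The authors' deposited table puts it at a mean normalized count of 6.58 and a log2 fold change of -1.26 with a standard error of 1.01, in the same orientation. comt-1 was listed at 0.02, 0.02 and 0.01 FPKM with DMSO and at 0.01, 0.05 and 0.02 FPKM with chaetocin. The table rounds to hundredths, which leaves comt-1 only a few distinct values. Neither comt-1 nor comt-2 reached the filter of the fit below, so no difference between the groups was tested here for them. comt-1, comt-4 and comt-5 are not among the 16062 coding genes of the authors' deposited comparison.

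**Figure D2:**
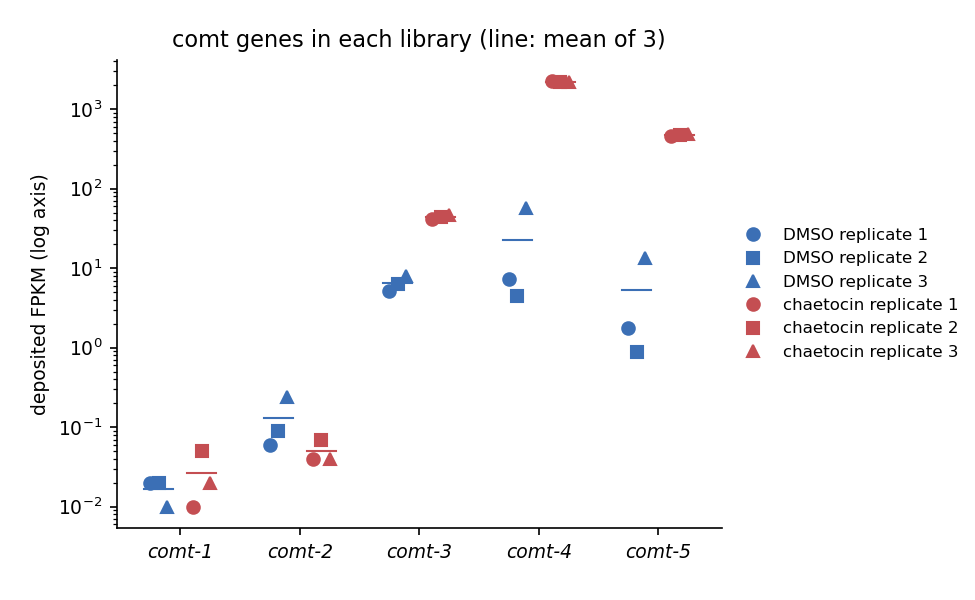
Deposited FPKM on a log axis of the 5 comt genes in each of the 6 libraries, with the mean of 3 libraries as a line. comt-3, comt-4 and comt-5 lie wholly higher with chaetocin, at 43.98, 2230.1 and 475 FPKM on average, DMSO replicate 3 lies above the other DMSO libraries for comt-4 and comt-5, and comt-1 and comt-2 stay below 0.3 FPKM.

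A fit across all genes gave the size of these changes on a common scale. limma was run on log2(FPKM + 0.1) after scaling the libraries, for the 15209 genes that reached 0.5 FPKM in 3 or more libraries. A gene was called at a Benjamini-Hochberg adjusted p under 0.05. comt-3, comt-4 and comt-5 passed the filter in both groups, and comt-1 and comt-2 did not pass it. The log2 fold change was 7.50 ± 0.85 for comt-4, 7.35 ± 0.86 for comt-5 and 2.78 ± 0.14 for comt-3 (± standard error). By this measure comt-4 ranked 3, comt-5 ranked 5 and comt-3 ranked 112 among the tested genes, counted from the largest increase. All 3 fell among the genes called higher, which made up 5.48% of those tested, beside 2.95% called lower. The rule that chose the members used this contrast, so nothing is read from that count. Without 1 chaetocin library at a time the genes called higher, 833 in all, numbered 545, 542 and 546, and the genes called lower, 448 in all, numbered 286 without DMSO replicate 1 and 274 without DMSO replicate 2.

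The order of the members by level differed between the groups. With DMSO, comt-4, comt-3 and comt-5 overlapped: comt-3 lay above comt-4 in DMSO replicate 2 and below it in the other DMSO libraries. With chaetocin, comt-4 lay above comt-5 and comt-5 above comt-3 in every library, with no overlap between the 3 genes. comt-2 and comt-1 were last in both groups, and their chaetocin values overlapped. Among all genes of a library, comt-4 ranked 107, 108 and 106 by FPKM in chaetocin replicates 1 to 3, out of 18894, 18821 and 18771 genes above 0. In DMSO replicates 1 to 3 it ranked 8503, 9862 and 3266. comt-4 took 0.172, 0.167 and 0.180% of all FPKM in the chaetocin libraries.

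comt-4 and comt-5 kept a near-constant ratio while their levels moved. comt-4 over comt-5 was 4.12, 4.97 and 4.25 with DMSO and 4.93, 4.68 and 4.50 with chaetocin. The lowest and highest of these ratios were both in DMSO libraries, and the chaetocin values lay between them. comt-4 over comt-3, in contrast, was 1.44, 0.693 and 7.15 with DMSO and 53.6, 50.6 and 48.2 with chaetocin. On the log2 scale the fold changes of comt-4 and comt-5 differed by 0.15, and those of comt-4 and comt-3 by 4.72. The estimation program divides fragments that match several transcripts among them, and how alike the comt transcripts are in sequence was not analysed here, so the separate levels of comt-4 and comt-5 are uncertain to that extent.

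The spread within groups was uneven. In DMSO the log2 range over the 3 libraries was 3.60 for comt-4, 3.71 for comt-5 and 0.57 for comt-3, against a median of 0.20 over all tested genes. A range at least as large as that of comt-4 was found in 126 other genes of the 15209 tested. In the chaetocin libraries the range was 0.03 for comt-4, 0.12 for comt-5 and 0.14 for comt-3, against a median of 0.18, and 759 genes had a smaller range than comt-4.

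DMSO replicate 3 was also the highest DMSO library for many other genes that were higher with chaetocin. It was the highest in 46.8% of all 833 genes called higher, against 35.6% of all tested genes. Among the 75 of them with at least an 8-fold change on the fitted scale, comt-4 and comt-5 included, 54 had their highest DMSO value in replicate 3, which is 72%. The median log2 difference of DMSO replicate 3 over DMSO replicate 1 was 0.57 in these 75 genes, 0.03 in the 833 genes and -0.01 over all tested genes. Genes are not independent of each other, and the part of this library in the comt results was measured only by leaving it out, as given above.

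The genes nearest to comt-4 in profile were sought over the same 6 libraries. A high DMSO replicate 3 is thus part of what selected them and adds nothing to the count above. Distance was taken between row-centred log2(FPKM + 0.1) profiles over the 6 libraries, so it follows the size of the change as well as its shape, and the values are a description. comt-5 was the nearest of all tested genes, at a distance of 0.25. Next came numr-2 (0.46), cyp-33C12 (0.52), numr-1 (1.25), clx-1 (1.41) and oac-14 (1.67), and the median distance over all tested genes was 9.58. comt-3 ranked 95 at a distance of 6.27.

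cyp-33C12 is a cytochrome P450 gene and lies on chromosome V, 140.3 kb from the comt cluster. It had 0.62, 0.17 and 3.63 FPKM with DMSO and 168, 162 and 171 FPKM with chaetocin. numr-1 and numr-2, near-identical genes known for induction by metals, were listed with the same 2.88, 1.41 and 24.8 FPKM in the DMSO libraries. In chaetocin replicates 1 to 3, numr-2 had 696, 980.3 and 849 FPKM and numr-1 had 1767, 1613 and 1778 FPKM. The estimation program divides shared fragments here too, so the separate levels of the numr genes, and the difference between them with chaetocin, are uncertain. DMSO replicate 3 was the highest DMSO library in all 5 nearest genes, which their selection by profile favours. DMSO replicate 3 over DMSO replicate 2 was 4.02 for oac-14, 13.6 for clx-1, 17.6 for the numr genes and 21.4 for cyp-33C12.

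**Figure D3:**
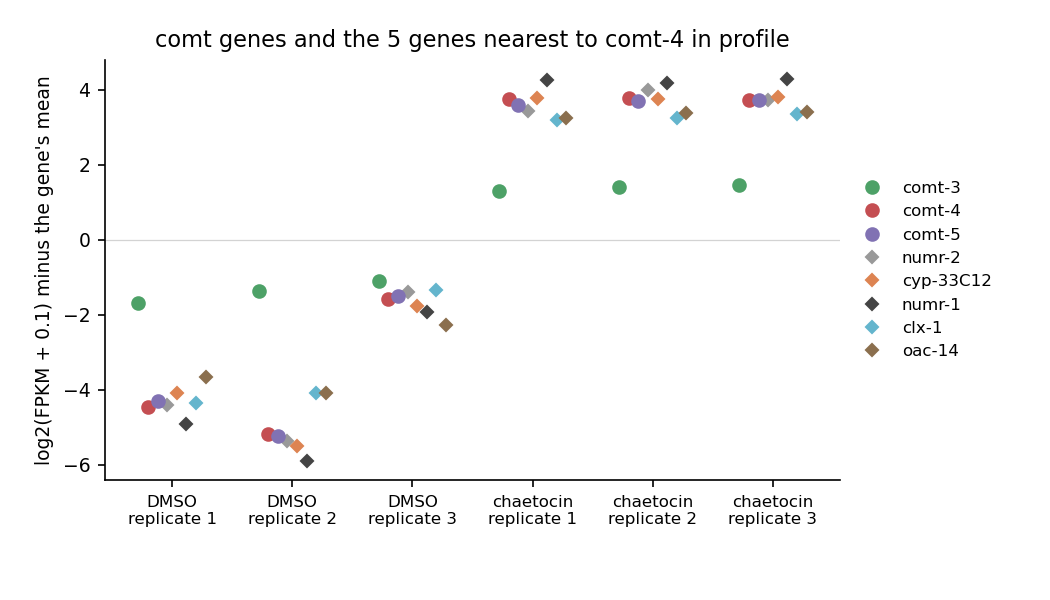
Row-centred log2(FPKM + 0.1) of comt-3, comt-4 and comt-5 (circles) and of the 5 genes nearest to comt-4 (diamonds) in each library. comt-4 and comt-5 lie on top of each other and among the diamonds, DMSO replicate 3 lies above the other DMSO libraries for these genes, and comt-3 spans a narrower range.

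comt-3 is annotated with 2 transcripts. The longer, Y40B10A.2a.1, has 868 bases in 4 exons and codes for 226 residues. The shorter, Y40B10A.2b.1, starts inside the second exon of the longer, has 558 bases in 3 exons and codes for 185 residues. The longer transcript had 4.49, 4.41 and 6.68 FPKM with DMSO and 41.9, 43.4 and 38.7 FPKM with chaetocin, with no overlap between groups. The shorter had 0.62, 1.97 and 1.26 FPKM with DMSO and 0.08, 0.37 and 7.47 FPKM with chaetocin, so its groups overlapped. Its share of the gene was 12.1, 30.9 and 15.9% with DMSO, and 0.191, 0.845 and 16.2% with chaetocin. Chaetocin replicate 3 thus stood apart from the other chaetocin libraries in this share. The transcripts overlap over most of their length, so the split between them is an estimate. The other 4 comt genes have 1 transcript each in the deposited table.

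Among the genes within 25 kb of the cluster, the tested genes outside the stretch from comt-4 to comt-3 were not called. The window holds 13 further annotated genes, of which 8 passed the filter, 1 was called higher and 0 lower. Of all tested genes, 8.42% were called in either direction. The called neighbour passed the filter only through the chaetocin libraries and had to differ, so its call is not read against that share. At an unadjusted p under 0.05 the limma fit had 1 further gene, F59A7.5, at 8.47, 8.97 and 8.77 FPKM with DMSO and 7.83, 6.02 and 5.95 FPKM with chaetocin (limma, adjusted p = 0.0943). It passed without chaetocin replicate 1 (adjusted p = 0.0230), where its log2 fold change was -0.52. The median log2 fold change of the 8 tested neighbours was -0.11, and that of all tested genes was -0.004.

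The neighbour called higher was Y40B10A.11 (WBGene00268197; V:2050915-2051607, minus strand), a coding gene that lies between comt-4 and comt-5. It lies 618 bases past the 3′ end of comt-5, on the same strand. Its chaetocin mean was 3.55 FPKM beside 475 FPKM for comt-5, and whether its reads belong to a separate transcript was not tested. Y40B10A.11 was listed at 0 in all 3 DMSO libraries and at 1.69, 5.39 and 3.56 FPKM in the chaetocin libraries (limma, adjusted p = 0.000534), so no fold is given. It passed the filter only through the chaetocin libraries and thus had to differ. Without any 1 of the 3 chaetocin libraries it did not pass the filter and was not tested. Y40B10A.10 is a noncoding RNA gene of 148 bases on the opposite strand inside comt-4. It was listed at 0 in the DMSO libraries and at 0, 6.52 and 23.7 FPKM in the chaetocin libraries. No source used here says whether counting used strand, so its reads cannot be told apart from those of comt-4.

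The genes next to the cluster on the other side stayed near their DMSO levels. nhr-86, a nuclear hormone receptor gene whose end overlaps that of comt-3 by 31 bases, had 36.2, 35.2 and 33.8 FPKM with DMSO and 37.3, 37.2 and 37.4 FPKM with chaetocin, which is 0.10 ± 0.05 on the log2 scale and missed the threshold (limma, adjusted p = 0.319). lbp-9, named as a lipid-binding protein gene, had between 1510 and 1603 FPKM with DMSO and between 1440.2 and 1627 FPKM with chaetocin (limma, adjusted p = 0.957). On the side of comt-4 the nearest gene, Y40B10A.5, stayed at or below 0.3 FPKM in all libraries.

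**Figure D4:**
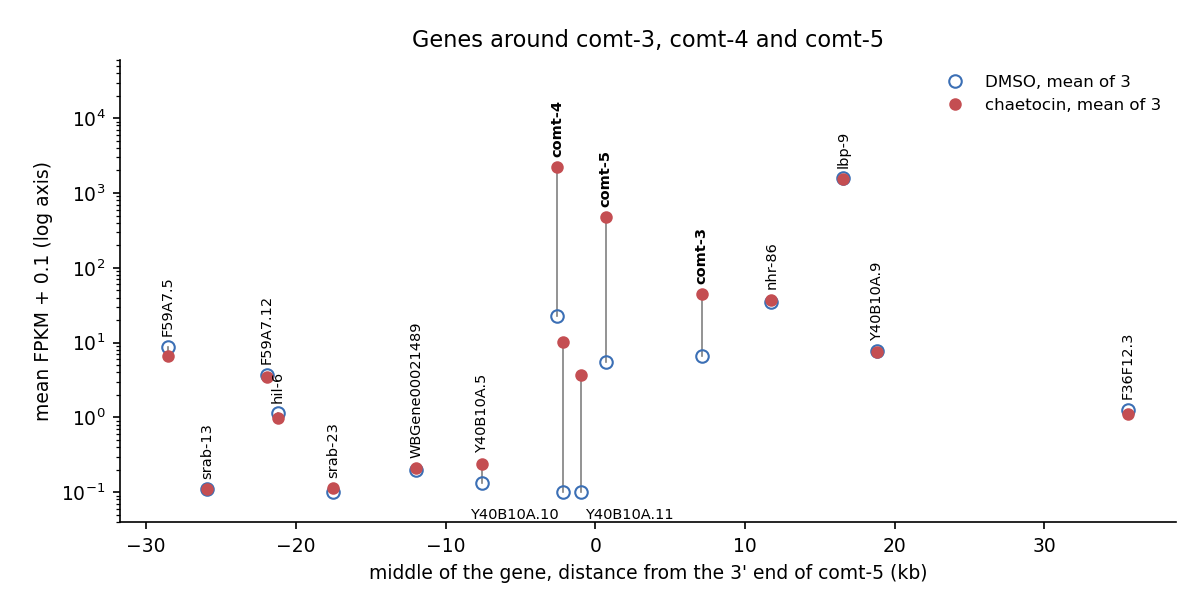
Mean FPKM + 0.1 on a log axis (3 libraries each; DMSO open, chaetocin filled) of the 16 genes within 25 kb of the cluster, by distance in kb of the middle of each gene from the 3′ end of comt-5. The means of comt-3, comt-4, comt-5, Y40B10A.10 and Y40B10A.11 differ widely, with the last pair listed at 0 with DMSO and Y40B10A.10 also at 0 in chaetocin replicate 1, while nhr-86 and lbp-9 next to them have DMSO and chaetocin means that nearly coincide.

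The catecholamine list held 18 genes that make, carry, sense or break down dopamine and related amines. Like the methyl donor and tyrosine breakdown lists below, it was chosen with earlier results of these data known. The shares of all tested genes are given beside the list counts, and no excess is read from them. Of the 16 catecholamine genes tested, 1 rose and 1 fell, beside 8.42% of all tested genes called. Both act early in the making of tetrahydrobiopterin. cat-4, the GTP cyclohydrolase gene that opens this route, fell from 64.7, 67.8 and 68.6 FPKM to 31.1, 28.7 and 30.1 FPKM, with no overlap (log2 fold change -1.15 ± 0.04; limma, adjusted p = 9.735e-06). ptps-1, named for the next enzyme, pyruvoyl tetrahydropterin synthase, rose from 8.86, 11.99 and 11.4 FPKM to 27.6, 28.9 and 30.9 FPKM (log2 fold change 1.45 ± 0.12; limma, adjusted p = 0.000382). Both calls held in every alternative fit that was run.

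Genes closer to dopamine itself did not pass. cat-2, the tyrosine hydroxylase gene of dopaminergic neurons, did not reach the filter: its levels were 0.47, 0.37 and 0.36 FPKM in the DMSO libraries against 0.34, 0.43 and 0.28 FPKM in the chaetocin libraries. bas-1, the aromatic amino acid decarboxylase gene, had 5.42, 5.34 and 5.74 FPKM with DMSO and 7.28, 5.24 and 4.80 FPKM with chaetocin, with overlapping groups (limma, adjusted p = 0.874). For the dopamine transporter gene dat-1 the log2 fold change was -0.37 ± 0.21 (limma, adjusted p = 0.408). That of the monoamine oxidase gene amx-2 was 0.25 ± 0.09 (limma, adjusted p = 0.166). The groups did not overlap for dat-1 or for amx-2, and the unadjusted limma p was 0.13 and 0.0255. The median log2 fold change of the 16 genes was -0.05. In whole animals a change in a few neurons may not be visible, and fewer cells of a type cannot be told apart from less RNA per cell.

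The methyl donor list held 18 genes, most of them of the methionine cycle or of enzymes that use its methyl group. It also held the cystathionine beta-synthase genes cbs-1 and cbs-2 and the adenosine kinase gene adk-1, which belong to neither. All 18 were tested, 0 rose and 4 fell, beside 2.95% of all tested genes called lower. Since the list was chosen with earlier results of these data known, no excess is read from this count. The median log2 fold change of the 18 genes was 0.0005. sams-1, an S-adenosylmethionine synthetase gene, fell from 72.8, 73.9 and 73.1 FPKM to 56.3, 51.2 and 52.99 FPKM, with no overlap (log2 fold change -0.44 ± 0.04; limma, adjusted p = 0.00079). pmt-2, a phosphoethanolamine methyltransferase gene of phosphocholine synthesis, fell from 217 ± 1.09 to 173 ± 5.88 FPKM (SD, n = 3 each; limma, adjusted p = 0.00156). pmt-1 of the same route and the adenosine kinase gene adk-1 fell less, by 0.24 and 0.17 on the log2 scale (limma, adjusted p = 0.0301 and 0.0190). Both of these last calls were lost when any single library other than DMSO replicate 3 was left out (largest adjusted p 0.0997 for pmt-1 and 0.0745 for adk-1) and with the replicate number as a block (0.0714 and 0.0765).

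ahcy-1 clears the S-adenosylhomocysteine that methyltransferases using S-adenosylmethionine leave behind. It had 1042, 1038 and 1010 FPKM with DMSO and 1133, 1071 and 1078 FPKM with chaetocin. Although its groups did not overlap, the difference of 0.10 ± 0.04 on the log2 scale missed the threshold (limma, adjusted p = 0.221). The other synthetase genes sams-3, sams-4 and sams-5 had log2 fold changes of 0.05, 0.01 and 0.11 and did not pass either. The amine methyltransferase genes anmt-1, anmt-2 and anmt-3, which act on other substrates, differed by 0.28, -0.06 and -0.01 on the log2 scale, and the limma test gave them an adjusted p of 0.374, 0.677 and 0.938.

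The tyrosine breakdown list held the 6 genes that take phenylalanine and tyrosine to fumarate and acetoacetate. All 6 were tested, 1 rose and 3 fell, beside 5.48% and 2.95% of all tested genes. This list too was chosen with earlier results of these data known, so no excess is read from the count. The median log2 fold change of the 6 genes was -0.19. tatn-1, the tyrosine aminotransferase gene, fell from 25.8, 27.3 and 27.2 FPKM to 19.9, 19.6 and 21.3 FPKM (log2 fold change -0.39 ± 0.05; limma, adjusted p = 0.00378). hgo-1, the homogentisate dioxygenase gene, fell from 60.5 ± 1.80 to 47.3 ± 1.56 FPKM (SD, n = 3 each; limma, adjusted p = 0.00459). gst-42, named for maleylacetoacetate isomerase, rose from 27.2 ± 1.29 to 34.4 ± 0.616 FPKM (SD, n = 3 each; limma, adjusted p = 0.00402). The phenylalanine hydroxylase gene pah-1 was called lower at an adjusted p of 0.0472 in the limma test. That call was lost without any 1 of the 6 libraries (adjusted p between 0.0624 and 0.147), with a pseudocount of 1 (0.0519), with no filter (0.0589), on unscaled FPKM (0.0671) and with the replicate number as a block (0.147).

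**Figure D5:**
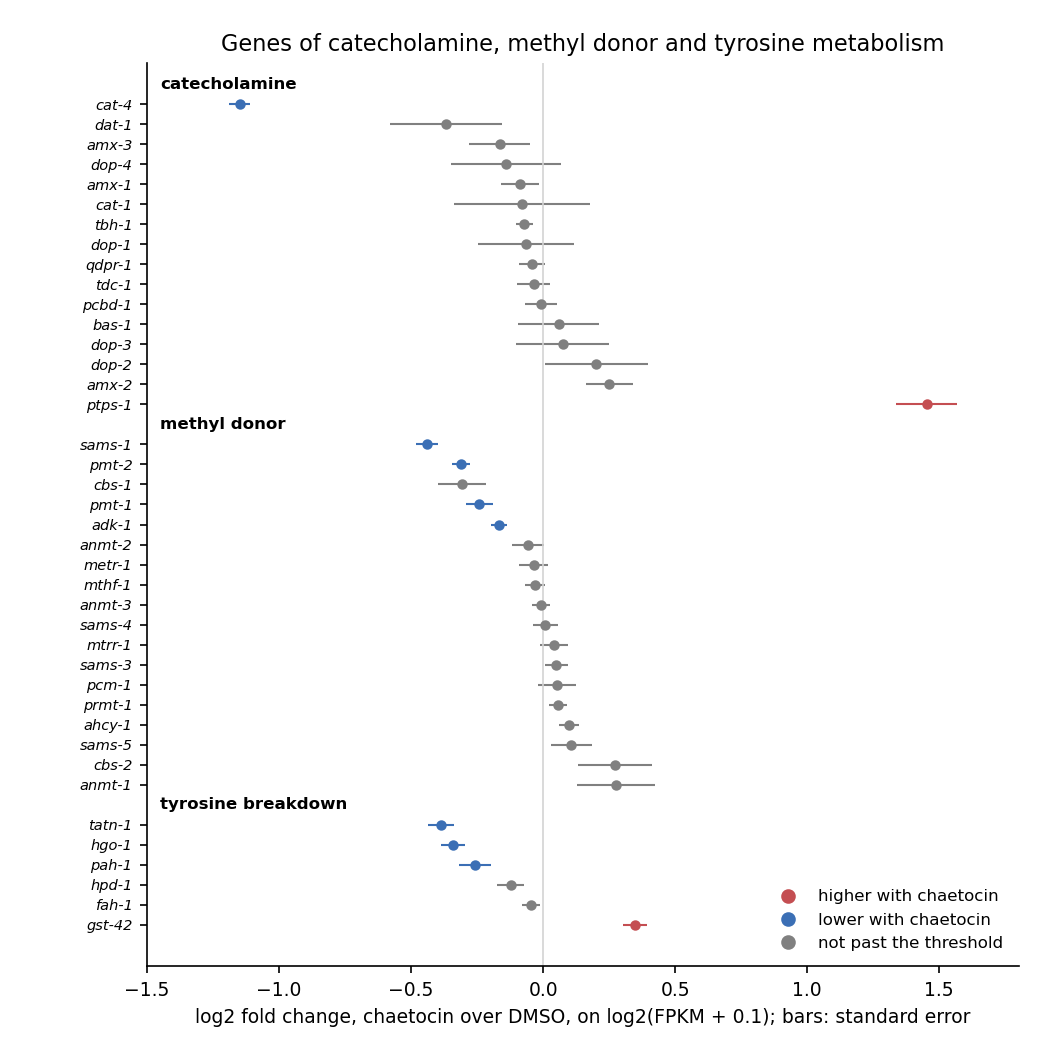
Log2 fold change of chaetocin over DMSO on log2(FPKM + 0.1), with its standard error as a bar, for the 40 tested genes of the catecholamine, methyl donor and tyrosine breakdown lists (n = 3 libraries per group). Red genes were called higher and blue genes lower; ptps-1 at 1.45 and cat-4 at -1.15 are the only genes beyond 1 in either direction, and all others lie within 0.5 of 0.

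Markers of the main tissues were detected in both groups, as the label of whole animals says. Of 4 intestinal markers, ges-1 and ifb-2 rose by 0.28 and 0.34 on the log2 scale (limma, adjusted p = 0.00673 and 0.000989), and elt-2 and vha-6 had log2 fold changes of -0.09 and -0.13 and did not pass (limma, adjusted p = 0.428 and 0.301). The summed level of all 4, to which ifb-2 gave the most, was between 239.5 and 243 FPKM with DMSO and between 262 and 280.1 FPKM with chaetocin. None of the tested markers of dopaminergic neurons, other neurons, hypodermis, body wall muscle, germline or sperm passed in the limma test. The dopaminergic marker cat-2 did not reach the filter and was not tested. Of all tested genes, 5.48% were called higher and 8.42% in either direction, so a lack of calls among so few markers says little about these tissues. The hypodermal rol-6 had 2.24, 2.25 and 0.95 FPKM with DMSO and 0.82, 0.26 and 0.14 FPKM with chaetocin, with no overlap. Its log2 fold change was -2.05 ± 0.56 (limma, unadjusted p = 0.00888, adjusted p = 0.0837), and it was the only 1 of them with an unadjusted p under 0.05. The summed dopaminergic markers were between 2.15 and 2.87 FPKM with DMSO and between 2.24 and 2.64 FPKM with chaetocin. The part of the intestinal markers in the comt results was not tested.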

How the data were processed

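RNA of 6 libraries, 3 with DMSO and 3 with chaetocin, was measured by sequencing, grouped by the treatment label. The authors deposited FPKM per gene and per transcript, read as FPKM from the values, since column sums differed (1232966 to 1326067) and no file states the unit. The columns are named as RSEM results, and per the submitters' processing notes the build was WBcel235 and the tools included STAR 2.7.9a, RSEM 1.3.1 and Trimmomatic 0.36. The authors' deposited comparison holds log2 fold changes, p-values and, as scores, a standard error and a mean normalized count per coding gene; no source used here names its software.

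Levels in the text are deposited FPKM. For the fit, log2(FPKM + 0.1) went into limma 3.58.1 (R 4.3.3) once libraries were scaled by a trimmed mean of log ratios without weights (factors 0.977 to 1.03), with 2-sided p adjusted by the Benjamini-Hochberg method. A fold change on this scale understates low genes. Fragment counts and depth are unknown, so no counting interval is given. The fit was tested on simulated data.

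The members and lists were chosen with earlier results of these data known. Named genes are the members, list genes past the threshold (4 at most per list) with cat-2, bas-1, ahcy-1 and sams-1, called neighbours, and the 5 genes nearest to comt-4; F59A7.5, nhr-86, lbp-9, the other list genes, the marker genes and the uncalled neighbours named were chosen after their values were seen. Homologues of the comt proteins and promoter and protein sequences were not analysed here.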

Additional observations from a re-analysis of the deposited data

How the results depend on the processing

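The log2 fold changes of comt-3, comt-4 and comt-5 kept their direction and moved by less than the spread between replicates under all alternatives run. These were pseudocounts of 1 and 0.01, no filter, a filter of 2 FPKM, unscaled FPKM, a replicate block and leaving out 1 library. The filters and the block cannot change these fold changes. Leaving out 1 library of a group can hardly move them beyond that spread, so staying within it says little. With 1 library left out the log2 fold changes lay between 2.63 and 2.92 for comt-3, 6.77 and 8.58 for comt-4, and 6.57 and 8.43 for comt-5. The count of genes called higher (833) lay between 542 and 827 and that of genes called lower (448) between 274 and 537 with 1 library left out, the methyl donor count (4) between 2 and 4, and the count of called neighbours (1) between 0 and 1. Y40B10A.11 was not tested without any 1 chaetocin library, and the 1 neighbour called without chaetocin replicate 1 was F59A7.5. The neighbour count was 0 with the filter of 2 FPKM, since Y40B10A.11 is then not tested.

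Same-numbered libraries deviated together weakly or not at all. The correlations of their deviations from the group means across 15209 genes were 0.105, 0.0699 and -0.0244 for replicates 1 to 3. The value for replicate 1 was the highest of any DMSO and chaetocin pair. Chaetocin replicate 2 correlated best with DMSO replicate 3 (0.0766), so not every library correlated best with its own number. The numbers are those of the replicate label; the library titles carry others, by which chaetocin replicate 3 would match DMSO replicate 2 (-0.0204). With the replicate block, 578 genes were called higher and 259 lower, and the methyl donor count was 2. The cause of these lower counts was not tested. Of the 1281 genes called in all, 812 were also called with the block. The planned search for homologues was not run. Without counts per library, the depth behind the FPKM of comt-1 and comt-2 is unknown and limits what can be said of them.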
